A study of Mus musculus with 30 samples.

Results

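Transcript levels of 10 genes were followed through 8 groups of mouse haematopoietic stem cells (HSCs). The genes were Dnmt1, Dnmt3a and Dnmt3b, Tet1, Tet2 and Tet3, Asxl1, Ezh2 and Ezh1, and Kdm6b. They were taken by symbol, with no measured value used in the choice, and all 10 were found among the 35727 genes of the table. Bone marrow HSCs were sorted, 4000 to 5000 cells a sample by the labels' protocols, and sequenced as bulk RNA in 30 libraries. Germ-free mice, labelled as having a germ-free bowel, gave 2 libraries at 1 year and 3 at 2 months. Mice labelled IL1R1 KO, without the type 1 interleukin-1 receptor by that label, gave 3 libraries at 2 months, 4 at 1 year and 5 at 2 years. Wild-type (WT) mice gave 4, 5 and 4 libraries at these 3 ages. The labels name neither the strain, nor the surface markers used for sorting, nor the housing of mice not labelled germ-free. No label says that replicates were separate animals, so p-values measure the spread between samples only, part of which may be technical.

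DNA methylation is written on cytosine by the DNMT enzymes and taken off stepwise by the TET enzymes. Dnmt1 copies the mark onto the new strand after replication, Dnmt3a and Dnmt3b place it on sites that lack it, and Tet1, Tet2 and Tet3 oxidise 5-methylcytosine. Ezh2 and Ezh1 are the alternative catalytic subunits of Polycomb repressive complex 2 (PRC2), which methylates histone H3 on lysine 27, and Kdm6b removes that mark. Asxl1 is a partner of the histone H2A deubiquitinase Bap1. In people, loss-of-function mutations of DNMT3A, TET2 and ASXL1 are the ones most often found in clonal haematopoiesis, the expansion of a mutated blood stem cell clone with age. The levels below are of transcripts and hold nothing on mutation or on DNA methylation itself.

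The values were the authors' normalized counts, in which gene counts had been divided by a factor for each library. Estimated depth was 15.6 to 56.3 M reads per library, with a mean of 29.9 M. Whole reads could not be recovered from these values, so the depth is approximate. None of the 12 genes of the HSC list was below 10 normalized counts in any of the 30 libraries, and Kit was at least 17449. The list held Cd48, at 12.3 to 1444, and Flt3, at 266 to 2338. By the test given below, both were lower in WT at 1 year (-3.72 and -1.46 log2 against 2 months). The same held in IL1R1 KO at 2 years (-3.38 and -1.30), and for Flt3 in WT at 2 years (-1.21). In IL1R1 KO and germ-free at 1 year neither passed. Their part in the age differences of the 10 genes was not tested. The endothelial marker Cdh5, the T cell marker Cd3e and the natural killer cell marker Ncr1 had a median of 0. Other genes of the same lists were present in every library. Pecam1 was at 1611 to 2824 normalized counts, Emcn at 690 to 1705, Nkg7 at 310 to 2179 and Klrb1c at 260 to 2572. Of the B cell list, Ighm had a median of 4112 and a maximum of 76308, Cd79b was at least 1083, and Pax5 had a median of 3.6. Mpo, a granulocyte precursor gene, reached 73276 and was over 10000 in 6 of the 10 libraries from 2-month mice. The receptor gene itself, Il1r1, was at 186 to 409 normalized counts in IL1R1 KO libraries, against 137 to 383 in WT libraries, so every direction given for IL1R1 KO rests on the label. Library IL1R1 KO 1 year replicate 1 carried the age label 2 month against a title and source of 1 year, and was kept at 1 year.

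The promoter windows of 3 genes are shown first: Ezh1, which rose with age, and Ezh2 and Dnmt1, which were called lower in some comparisons. For Ezh2 that was IL1R1 KO at 1 year only. Whether the letters of a window bear on a change with age was not tested. Each window holds 250 bases before and 50 after a RefSeq transcript start on GRCm38.p6, read 5′ to 3′ on the gene's strand, here the minus strand for all 3. They lie at chr11:101226414-101226713 for Ezh1, chr6:47594981-47595280 for Ezh2 and chr9:20952574-20952873 for the last of 3 Dnmt1 starts. Capitals mark the E2F letters searched (TTTCCCGC or TTTGGCGC) and the CCAAT box (CCAAT), each on either strand.
Ezh1: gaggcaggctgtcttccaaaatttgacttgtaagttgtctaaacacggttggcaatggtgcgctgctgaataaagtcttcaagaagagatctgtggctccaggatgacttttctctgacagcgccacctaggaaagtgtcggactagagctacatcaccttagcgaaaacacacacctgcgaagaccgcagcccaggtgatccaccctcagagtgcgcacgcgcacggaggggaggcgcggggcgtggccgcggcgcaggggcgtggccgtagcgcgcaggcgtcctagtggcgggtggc
Ezh2: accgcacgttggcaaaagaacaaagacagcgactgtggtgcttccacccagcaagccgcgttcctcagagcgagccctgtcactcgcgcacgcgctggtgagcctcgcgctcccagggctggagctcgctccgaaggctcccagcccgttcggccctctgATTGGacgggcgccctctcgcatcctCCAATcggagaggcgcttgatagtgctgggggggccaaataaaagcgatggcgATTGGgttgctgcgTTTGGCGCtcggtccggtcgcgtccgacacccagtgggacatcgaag
Dnmt1: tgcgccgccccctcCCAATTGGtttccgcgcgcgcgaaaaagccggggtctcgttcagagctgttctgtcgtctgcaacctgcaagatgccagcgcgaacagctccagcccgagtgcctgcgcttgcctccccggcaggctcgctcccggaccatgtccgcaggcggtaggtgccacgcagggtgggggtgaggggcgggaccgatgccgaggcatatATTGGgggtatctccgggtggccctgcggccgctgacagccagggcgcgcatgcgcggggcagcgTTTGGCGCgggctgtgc
The Ezh2 and Dnmt1 windows each held TTTGGCGC and 3 CCAAT boxes, of which 2 in the Dnmt1 window overlap on opposite strands, and the Ezh1 window held neither motif. Of all 32851 RefSeq windows of this length, 1.56% held the E2F letters and 37.4% a CCAAT box. Windows were found for 9 of the 10 members, 13 in all, of which 2 held the E2F letters and 4 a CCAAT box. A GC box (GGGCGG) was in 9 of the 13 and in 35.7% of all windows. The letters TGACG were in 1 of the 13 against 20.8% of all windows, and TTTGAA was in 3 of the 13 against 17.9%. The windows held 31 CpG sites for Ezh2, 33 for the Dnmt1 start shown and 23 for Ezh1, where the median of all windows was 7. The windows of the other 2 Dnmt1 starts held 2 and 12 CpG sites, 5 and 0 CCAAT boxes and no E2F letters, and the start shown was chosen because its window holds those letters. The Kdm6b promoter is not shown.

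With age, Ezh1 rose in germ-free, IL1R1 KO and WT HSCs, and Dnmt1 fell in IL1R1 KO and WT HSCs. Ezh2 fell in IL1R1 KO HSCs at 1 year. Kdm6b was called higher at 2 years in IL1R1 KO and lower at 1 year in WT, but its change with age was not called different between them. The germ-free call of Ezh1, the WT call of Dnmt1 and the IL1R1 KO call of Kdm6b were lost whichever library was left out. Dnmt3a, Dnmt3b, Tet1, Tet2 and Tet3 passed the test in none of the 15 comparisons made. The test was limma on log2(normalized count + 1) over all genes, and a call is an adjusted p under 0.05.

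In germ-free at 1 year against 2 months, 1 of 10 members was called, where 2.10% of the 16958 genes tested were called, and it was higher, as were 1.29% of all genes. In IL1R1 KO at 1 year against 2 months, 3 of 10 were called, against 2.00% of all genes: 1 was higher and 2 were lower, against 1.39% and 0.613% of all genes. In IL1R1 KO at 2 years against 2 months, 3 of 10 were called, against 8.02%: 2 were higher and 1 was lower, against 5.12% and 2.90%. In WT at 1 year against 2 months, 3 of 10 were called, against 10.7%: 1 was higher and 2 were lower, against 6.12% and 4.61%. In WT at 2 years against 2 months, 1 of 10 was called, against 5.55%, and it was higher, against 3.92%. The later ages of a genotype were compared with the same 2-month libraries, so these counts are not independent of each other. From 1 year to 2 years, 0 of 10 were called in IL1R1 KO, against 0.177% of all genes, and 0 of 10 in WT, against 0.0118%. At an unadjusted p under 0.05 these last counts were 2 of 10 in IL1R1 KO and 1 of 10 in WT.

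Against WT of the same age, germ-free HSCs had 1 of 10 members called at 1 year, against 4.96% of all genes, and it was higher, against 1.83%. At 2 months they had 0 of 10, against 0.601%. IL1R1 KO HSCs had 0 of 10 called at 2 months, 1 year and 2 years, where 0.407%, 1.30% and 1.42% of all genes were called. At an unadjusted p under 0.05 these 3 counts were 1, 3 and 2 of 10, and the germ-free count at 2 months was 0. The tests of whether the change with age differed from that of WT called 0 of 10 for IL1R1 KO to 1 year (0.0354% of all genes), 0 of 10 for IL1R1 KO to 2 years (0.395%) and 0 of 10 for germ-free to 1 year (0%). At an unadjusted p under 0.05 they were 1, 2 and 0 of 10.

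Groups whose libraries did not overlap are named at each gene, and small groups fail to overlap often. Against 2 months, 5 of 10 members did not overlap in germ-free at 1 year, 4 in IL1R1 KO at 1 year and 5 at 2 years, and 4 in WT at 1 year and 3 at 2 years. Of all genes tested, 26.5%, 11.4%, 16.3%, 12.5% and 9.13% did not overlap in these comparisons. Between 2 years and 1 year it was 1 of 10 in IL1R1 KO, against 3.80% of all genes, and 0 of 10 in WT, against 1.61%. Against WT of the same age it was 5 of 10 in germ-free at 1 year (26.3% of all genes) and 1 of 10 at 2 months (7.63%). In IL1R1 KO against WT it was 2 of 10 at 2 months (7.06%), 2 at 1 year (6.24%) and 0 at 2 years (5.78%).

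**Figure D1:**
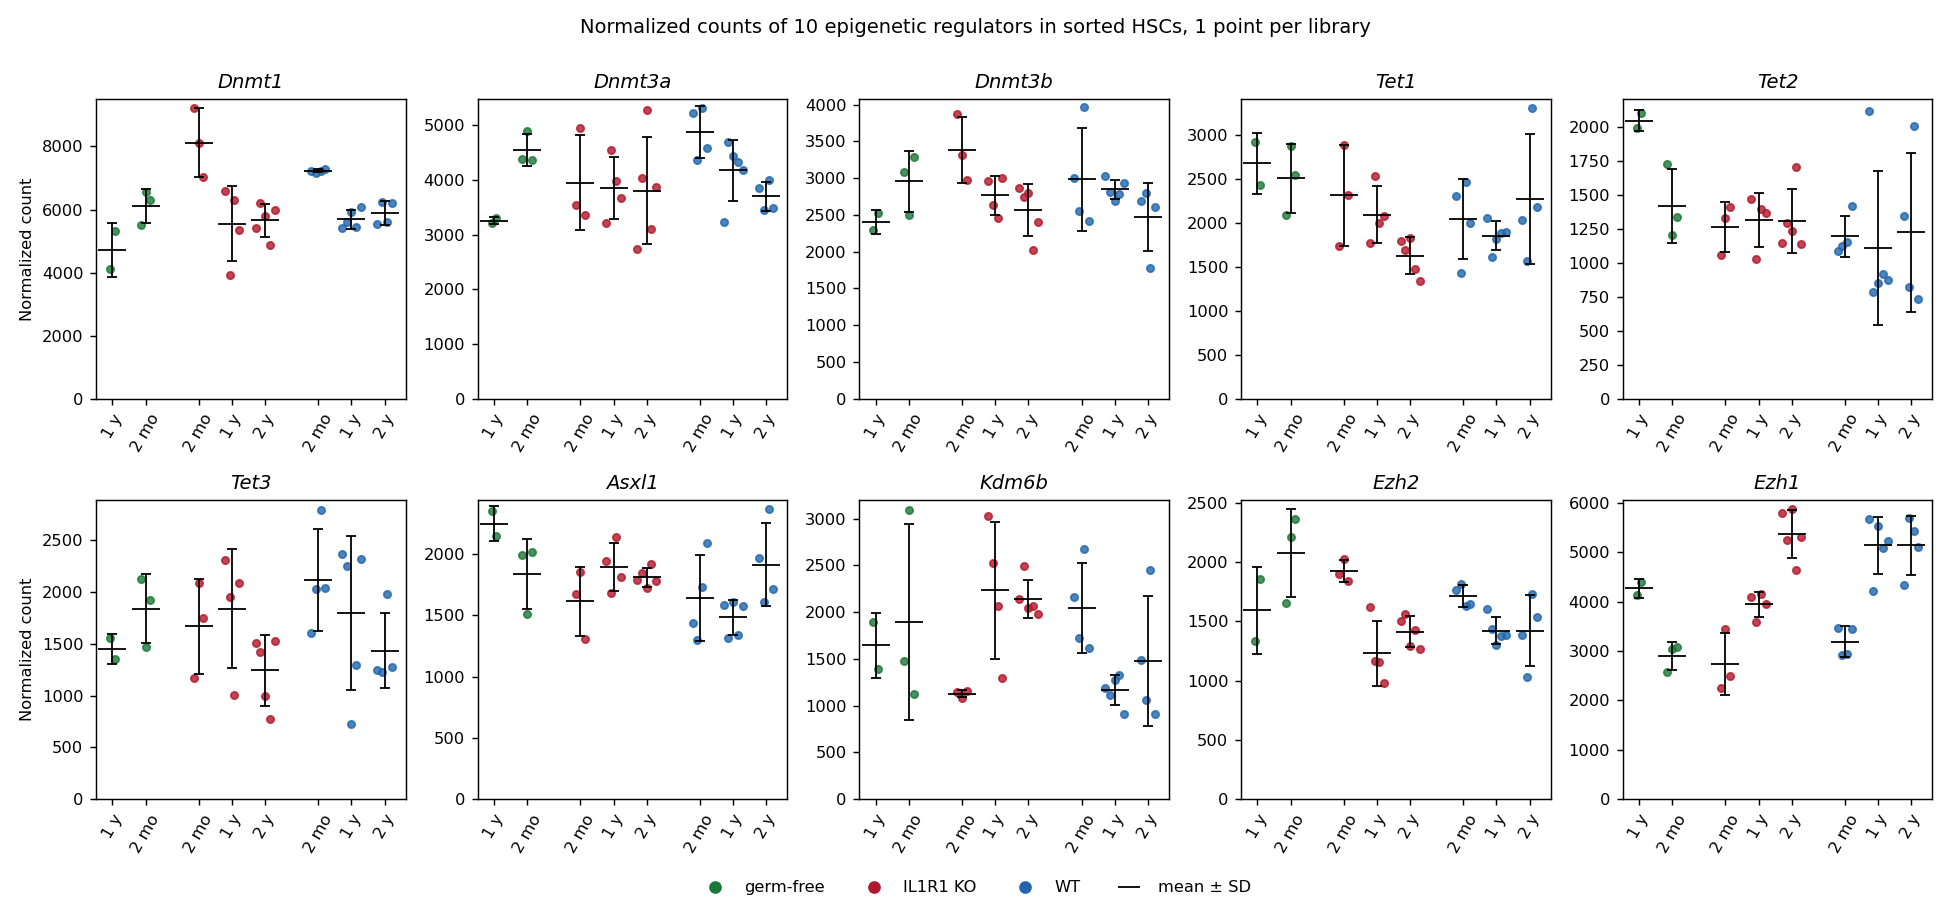
Normalized count (vertical axis, from 0) of each of the 10 genes in each of the 30 libraries, by group along the horizontal axis (germ-free at 1 year then 2 months, IL1R1 KO and WT at 2 months, 1 year and 2 years), with the kind of mouse in colour. Points are libraries, and black bars are the group mean ± SD. Ezh1 is higher at the later ages in all 3 kinds of mice, while the Tet2, Tet3 and Kdm6b points spread widely within some groups.

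**Figure D2:**
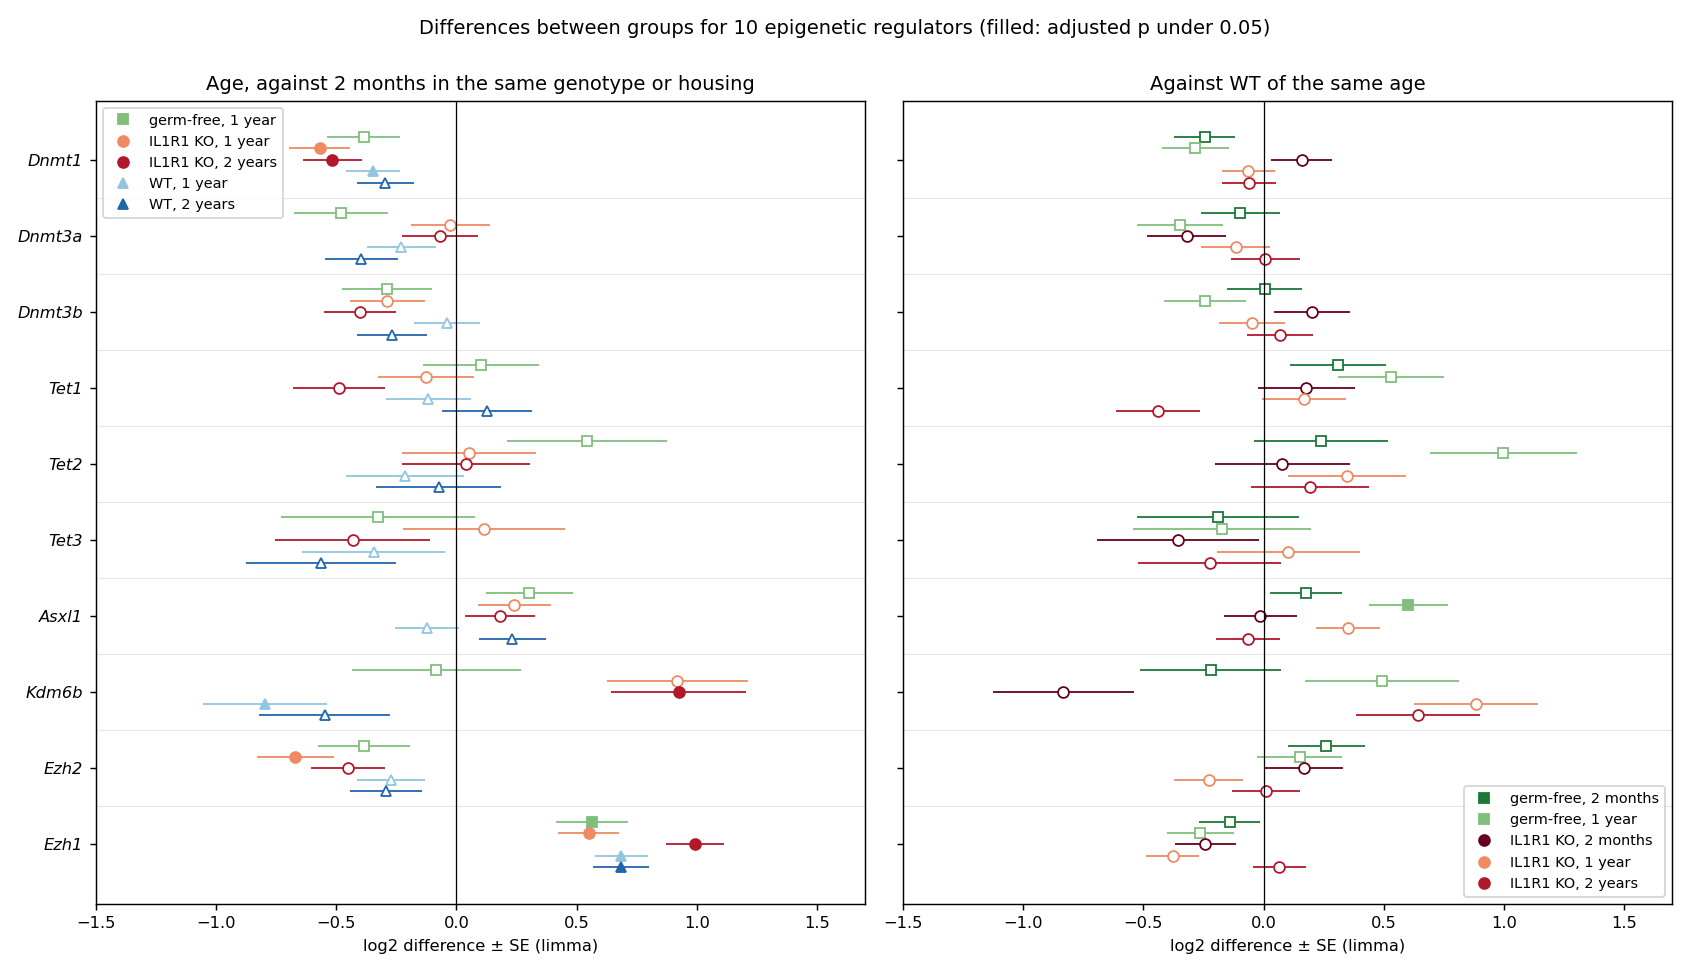
Log2 difference ± SE from limma for each gene (rows), with later ages against 2 months on the left and germ-free or IL1R1 KO against WT of the same age on the right. Filled symbols have an adjusted p under 0.05; Ezh1 lies to the right of 0 with a filled symbol in all 5 comparisons on the left, and on the right the filled symbol is Asxl1 in germ-free at 1 year.

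Levels were divided by the exonic length of each gene, which ran from 5106 bases for Dnmt3b to 16870 for Tet2. On that scale Dnmt1 was the most abundant member, at a mean of 829.5 normalized counts per exonic kb over the 30 libraries. Ezh1 followed at 569.5 and Dnmt3b at 547 per kb. Kdm6b, Dnmt3a, Asxl1 and Ezh2 lay close together, between 234 and 249 per kb. The TET genes were lowest on that scale, Tet1 at 136, Tet3 at 100.2 and Tet2 at 77.4 per kb. Which annotated exons these cells transcribe was not tested, so the order holds only for the lengths used. Undivided, Dnmt3a had a median of 4016 normalized counts and Dnmt3b one of 2792. Every member was above 700 normalized counts in every library. The widest range was that of Tet3, whose highest library was 3.84 times its lowest, and the narrowest that of Asxl1, at 1.82 times. Exons of Asxl1, Dnmt3a, Ezh2, Kdm6b and Tet2 overlap a gene on the opposite strand, and the libraries did not mark strand, so reads of the overlapped bases could come from either.

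Ezh1 (ENSMUSG00000006920, chromosome 11, 101191115 to 101226463, minus strand, GRCm38) encodes the PRC2 catalytic subunit that is typical of non-dividing cells. In germ-free HSCs it had 4135 and 4399 normalized counts at 1 year, against 2569, 3031 and 3088 at 2 months. In IL1R1 KO HSCs it had 2254, 3446 and 2503 at 2 months, 4101, 3578, 4152 and 3948 at 1 year and 5787, 5245, 5876, 4647 and 5299.7 at 2 years. In WT HSCs it had 3466, 2921, 2934 and 3447 at 2 months, 5678, 4207, 5526, 5079 and 5229 at 1 year and 4331, 5702, 5439 and 5097 at 2 years. Every library of 1 or 2 years stood above every 2-month library of all 3 kinds of mice, the nearest being 3578 in IL1R1 KO at 1 year and 3466 in WT at 2 months. In bulk RNA a change in RNA per cell cannot be told apart from a change in the share of cells that carry it.

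Ezh1 rose 1.48-fold in germ-free at 1 year against 2 months, a log2 difference of 0.56 ± 0.15 (SE, adjusted p = 0.0457). In IL1R1 KO the log2 difference from 2 months was 0.55 ± 0.13 at 1 year (adjusted p = 0.0185) and 0.99 ± 0.12 at 2 years (adjusted p = 2.12e-06), the age of the largest rise, 1.99-fold. In WT it was 0.69 ± 0.11 at 1 year (adjusted p = 0.000108) and 0.69 ± 0.12 at 2 years (adjusted p = 0.000312). Both WT calls and the IL1R1 KO call at 2 years held with each library left out in turn. The germ-free call was lost whichever of its 5 libraries was left out, and the log2 difference was 0.48 to 0.61 and the adjusted p 0.0569 to 0.184.

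The size of the Ezh1 rise in IL1R1 KO HSCs turned on its 2-month libraries. Replicates 1 and 3, in which Mpo was 29251 and 23626 normalized counts, had the lowest Ezh1 of all libraries, and replicate 2, with Mpo at 3075, was within the range of WT at 2 months. With the 6 libraries of 2-month mice whose Mpo was over 10000 left out, the IL1R1 KO difference was 0.19 at 1 year (adjusted p = 0.828) and 0.64 at 2 years (adjusted p = 0.0322), each resting at 2 months on that library alone, which is taken to vary like the other groups. The WT differences were then 0.68 at 1 year (adjusted p = 0.00109) and 0.68 at 2 years (adjusted p = 0.00207). The 1-year call was also lost without IL1R1 KO 2 months replicate 1 (0.42, adjusted p = 0.177), replicate 3 (0.50, adjusted p = 0.0652) or IL1R1 KO 1 year replicate 3 (0.52, adjusted p = 0.0545). With the library of conflicting age labels placed at 2 months the difference at 1 year was 0.38 (adjusted p = 0.331). In the other groups of 2 months, libraries of high Mpo did not stand apart in Ezh1. WT replicates 2 and 4 (Mpo 73276 and 60867) had 2921 and 3447, against 3466 and 2934 in replicates 1 and 3. Germ-free replicates 1 and 3 (Mpo 56547 and 35472) had 2569 and 3088, against 3031 in replicate 2. A link between Mpo and Ezh1 was not tested.

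By group mean, Ezh1 was highest in IL1R1 KO at 2 years, 5371 ± 493 (SD, n = 5) normalized counts, followed by WT at 1 year, 5144 ± 575 (SD, n = 5), and WT at 2 years, 5142 ± 595 (SD, n = 4). Germ-free at 1 year averaged 4267 ± 187 (SD, n = 2) and IL1R1 KO at 1 year 3944 ± 259 (SD, n = 4), and the libraries of neighbours in this order overlapped. A gap without overlap separated these from the 3 groups of 2 months, which overlapped each other: 3192 ± 306 (SD, n = 4) in WT, 2896 ± 285 (SD, n = 3) in germ-free and 2734 ± 629 (SD, n = 3) in IL1R1 KO. At 1 year every IL1R1 KO library was below every WT library, a log2 difference of -0.38 ± 0.11 (adjusted p = 0.0939) that missed the threshold. At 2 years IL1R1 KO and WT overlapped, with 0.065 ± 0.11 (adjusted p = 0.895, 95% interval -0.16 to 0.29). Within IL1R1 KO every 2-year library was above every 1-year library, at 0.44 ± 0.11 (adjusted p = 0.111). The rise with age was not called different from that of WT in IL1R1 KO to 1 year (-0.14 ± 0.17, adjusted p = 0.831), in IL1R1 KO to 2 years (0.31 ± 0.17, adjusted p = 0.587) or in germ-free (-0.12 ± 0.19, adjusted p = 0.868).

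Ezh2 (ENSMUSG00000029687, chromosome 6, 47530139 to 47595341, minus strand, GRCm38), the PRC2 catalytic subunit typical of dividing cells, had its highest levels at 2 months. In germ-free HSCs it had 1332 and 1854 normalized counts at 1 year, against 1653, 2209.6 and 2367 at 2 months. IL1R1 KO HSCs had 1903, 2029 and 1841 at 2 months, 1621, 1163, 1157 and 978 at 1 year and 1505, 1566, 1291, 1430.4 and 1269 at 2 years. WT HSCs had 1765, 1815, 1632 and 1644 at 2 months, 1605, 1438, 1299.8, 1374 and 1383 at 1 year and 1387, 1028, 1733 and 1539 at 2 years. All IL1R1 KO libraries of 1 and 2 years lay below all of 2 months, as did all WT libraries of 1 year, while WT at 2 years and germ-free at 1 year overlapped their 2-month groups.

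Ezh2 fell in IL1R1 KO at 1 year to 0.629 of its 2-month level, a log2 difference of -0.67 ± 0.16 (adjusted p = 0.0254). That call was lost without IL1R1 KO 2 months replicates 1 or 2 or IL1R1 KO 1 year replicates 2, 3 or 4, where the log2 difference was -0.68 to -0.57 and the adjusted p 0.0645 to 0.0990. Without the 2-month libraries of high Mpo it was -0.75 (adjusted p = 0.212). At 2 years the IL1R1 KO difference was -0.45 ± 0.15 (adjusted p = 0.0705), in WT -0.27 ± 0.14 at 1 year and -0.29 ± 0.15 at 2 years (adjusted p = 0.245 and 0.303), and in germ-free -0.38 ± 0.19 at 1 year (adjusted p = 0.346). None of these 4 passed. Ezh2 against WT of the same age lay between -0.23 ± 0.14 in IL1R1 KO at 1 year and 0.26 ± 0.16 in germ-free at 2 months, and none of the 5 such differences passed. DNA replication genes were lower in the same libraries, as given with Dnmt1, and with their mean level in the model the IL1R1 KO difference at 1 year was -0.50 (adjusted p = 0.293). That mean level itself moved with age, and its part in the Ezh2 difference was not tested.

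The ratio of Ezh2 to Ezh1 within a library, which does not depend on the scaling of the libraries, was lower at later ages. It can fall through Ezh1 alone, so it does not show that Ezh2 moved, and Ezh2 itself was called only in IL1R1 KO at 1 year. The ratio was 0.322 and 0.421 in germ-free HSCs at 1 year, against 0.644, 0.729 and 0.767 at 2 months. In IL1R1 KO HSCs it was 0.845, 0.589 and 0.735 at 2 months, 0.395, 0.325, 0.279 and 0.248 at 1 year and 0.260, 0.299, 0.220, 0.308 and 0.239 at 2 years. In WT HSCs it was 0.509, 0.621, 0.556 and 0.477 at 2 months, 0.283, 0.342, 0.235, 0.271 and 0.265 at 1 year and 0.320, 0.180, 0.319 and 0.302 at 2 years. No library of 1 or 2 years reached the lowest 2-month library, in WT, IL1R1 KO or germ-free. In IL1R1 KO the mean fell to 0.312 ± 0.0642 (SD, n = 4) at the age of 1 year, and to 0.265 ± 0.0377 (SD, n = 5) at 2 years, against 0.723 ± 0.128 (SD, n = 3) at 2 months. In WT it fell to 0.279 ± 0.0393 (SD, n = 5) and 0.280 ± 0.0672 (SD, n = 4) at the later ages, against 0.541 ± 0.0627 (SD, n = 4) at 2 months. In germ-free it was 0.372 ± 0.0702 (SD, n = 2) at 1 year, against 0.713 ± 0.0630 (SD, n = 3).

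On the log2 scale the ratio differed from 2 months by -1.22 in IL1R1 KO at 1 year (exact permutation p = 0.0286) and -1.44 at 2 years (exact p = 0.0179). In WT the differences were -0.96 at 1 year (exact p = 0.00794) and -0.98 at 2 years (exact p = 0.0286). Adjusted over the 5 comparisons, each of these 4 exact two-sided p-values was 0.0357. In germ-free the log2 difference was -0.95, with an exact p of 0.1, the smallest that 2 against 3 libraries can give. The 4 exact p-values of IL1R1 KO and WT were likewise the smallest their group sizes can give. The groups of these comparisons already did not overlap in Ezh1 alone. Ratios are of normalized counts without correction for exon length, which is the same in every library.

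**Figure D3:**
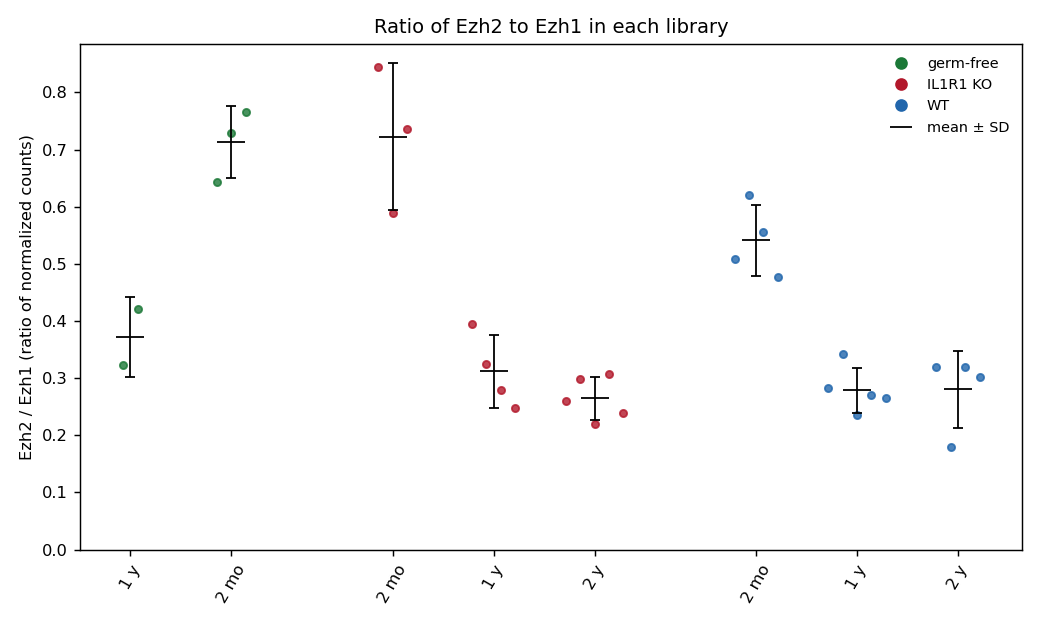
Ratio of the Ezh2 to the Ezh1 normalized count (vertical axis, no unit, from 0) in each library, by group, with germ-free, IL1R1 KO and WT in colour and black bars for the mean ± SD. All libraries of 2 months lie at 0.477 or above, and all of 1 and 2 years at 0.421 or below.

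Dnmt1 (ENSMUSG00000004099, chromosome 9, 20907209 to 20959888, minus strand, GRCm38), the maintenance methyltransferase, was lower at later ages. In germ-free HSCs it had 4105 and 5316 normalized counts at 1 year, against 5519, 6542 and 6292 at 2 months. Libraries of IL1R1 KO mice had 9227, 8095 and 7029 at 2 months, 6599, 3937, 6288 and 5365 at 1 year and 5429.9, 6221, 5809.6, 4870.1 and 5977 at 2 years. Libraries of WT mice had 7229, 7171, 7236 and 7282 at 2 months, 5405, 5618, 5928, 5432 and 6068 at 1 year and 5534, 6234, 5603 and 6218 at 2 years. In each kind of mouse all libraries of the later ages lay below all those of 2 months, and WT at 2 months was tight, at 7229 ± 45.6 (SD, n = 4).

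Dnmt1 fell in IL1R1 KO at 1 year (-0.57 ± 0.13 log2 against 2 months, adjusted p = 0.0153) and at 2 years (-0.52 ± 0.12, adjusted p = 0.00702). In WT it fell at 1 year (-0.35 ± 0.11, adjusted p = 0.0435), and the difference at 2 years was -0.30 ± 0.12 (adjusted p = 0.158). Germ-free at 1 year differed from 2 months by -0.39 ± 0.15 (adjusted p = 0.201). The WT call was lost whichever of its 9 libraries was left out, at -0.37 to -0.33 and an adjusted p of 0.0546 to 0.0938. The IL1R1 KO call at 1 year was lost without IL1R1 KO 2 months replicate 1, the highest library (-0.47, adjusted p = 0.140), or IL1R1 KO 1 year replicate 2, the lowest (-0.41, adjusted p = 0.0606). The call at 2 years was lost without IL1R1 KO 2 months replicate 1 (-0.42, adjusted p = 0.0811). Without the 2-month libraries of high Mpo, the IL1R1 KO differences were -0.57 at 1 year (adjusted p = 0.240) and -0.52 at 2 years (adjusted p = 0.175).

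Some genes of DNA replication fell in the same comparisons as Dnmt1. Of a list of 22, all tested, 7 were called lower in IL1R1 KO at 1 year, 10 in IL1R1 KO at 2 years, 12 in WT at 1 year, 5 in WT at 2 years and 4 in germ-free at 1 year, each against 2 months, and none was called higher. Of all genes, 0.613% were called lower in IL1R1 KO at 1 year, 2.90% in IL1R1 KO at 2 years and 4.61% in WT at 1 year. In either direction 5.55% were called in WT at 2 years and 2.10% in germ-free at 1 year. The median log2 difference of the 22 was -0.57 in IL1R1 KO at 1 year and -0.48 in WT at 1 year, where the medians of all genes were 0.0020 and 0.014. Their mean log2 level was 11.70 in IL1R1 KO at 2 months, 11.15 at 1 year and 11.20 at 2 years, and 11.57, 11.04 and 11.11 in WT at these ages. In germ-free it was 10.97 at 1 year, against 11.51 at 2 months. With that mean level as a covariate, the Dnmt1 difference was -0.15 in IL1R1 KO at 1 year (adjusted p = 0.624), -0.14 at 2 years (adjusted p = 0.536) and 0.056 in WT at 1 year (adjusted p = 0.797). The level itself was 11.48 to 11.65 in WT at 2 months and 10.89 to 11.14 at 1 year. In IL1R1 KO it was 11.41 to 12.04 at 2 months, 10.92 to 11.44 at 1 year and 11.07 to 11.35 at 2 years. The covariate thus can hardly be told apart from age, and the cause of the Dnmt1 fall was not tested. Granulocyte precursor markers also differed by age: of 11, 1 was called higher and 4 lower in WT at 1 year, against 6.12% and 4.61% of all genes. Their summed level was 14954 to 120257 normalized counts in WT at 2 months, 14167 to 17671 at 1 year and 18441 to 58104 at 2 years, none of the 11 had a median of 0, and without the 2-month libraries of high Mpo the WT difference of Dnmt1 was -0.35 (adjusted p = 0.182).

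Against WT of the same age, Dnmt1 passed in no group. All germ-free libraries lay below all WT libraries of their age, with a log2 difference of -0.28 ± 0.14 at 1 year (adjusted p = 0.252) and -0.24 ± 0.13 at 2 months (adjusted p = 0.567). IL1R1 KO overlapped WT at each age, with 0.16 ± 0.13 at 2 months, -0.063 ± 0.11 at 1 year and -0.062 ± 0.11 at 2 years.

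**Figure D4:**
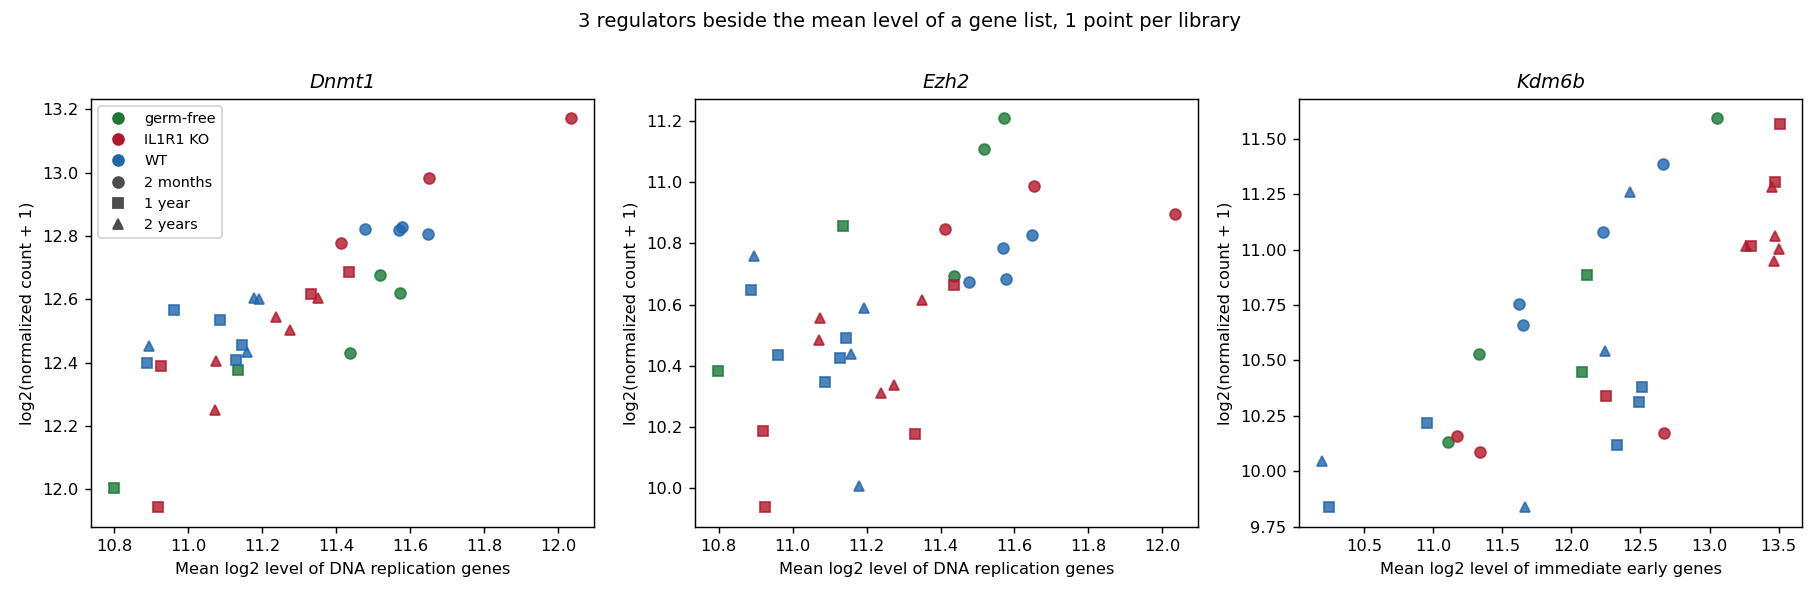
Level of Dnmt1 (left), Ezh2 (middle) and Kdm6b (right), as log2(normalized count + 1), against the mean log2 level of 22 DNA replication genes (left and middle) or 20 immediate early genes (right), 1 point per library. Colour gives the kind of mouse and shape the age. For Dnmt1 the 2-month points of IL1R1 KO and WT lie above all later points, and those of germ-free overlap later points in height. For Ezh2 the 2-month points overlap later ones in height. IL1R1 KO at 2 years lies at the right of the Kdm6b panel.

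The de novo methyltransferases passed the test in none of the 15 comparisons. Dnmt3a (ENSMUSG00000020661, chromosome 12, 3806007 to 3914443, plus strand, GRCm38) had 3208 and 3309 normalized counts in germ-free HSCs at 1 year, against 4383, 4889.7 and 4369 at 2 months. IL1R1 KO HSCs averaged 3949 ± 866 (SD, n = 3) at 2 months, then 3853 ± 559 (SD, n = 4) at 1 year, then 3807 ± 986 (SD, n = 5) at 2 years. In WT HSCs it had 5221, 4364, 5324 and 4582 at 2 months, 3237, 4689.6, 4432, 4336 and 4174 at 1 year and 3856, 3445, 3999 and 3494 at 2 years. WT at 2 years lay wholly below WT at 2 months, as germ-free at 1 year did below germ-free at 2 months, while IL1R1 KO groups overlapped each other at all 3 ages. The log2 difference from 2 months was -0.48 ± 0.20 in germ-free at 1 year (adjusted p = 0.218), -0.40 ± 0.15 in WT at 2 years (adjusted p = 0.137) and -0.069 ± 0.16 in IL1R1 KO at 2 years (adjusted p = 0.862, 95% interval -0.39 to 0.25). IL1R1 KO at 2 months was -0.32 ± 0.16 from WT (adjusted p = 0.546).

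Dnmt3b (ENSMUSG00000027478, chromosome 2, 153649450 to 153687730, plus strand, GRCm38) lies 245 kb from Asxl1 on chromosome 2. It averaged 2406 ± 161 (SD, n = 2) normalized counts in germ-free HSCs at 1 year, against 2954 ± 413 (SD, n = 3) at 2 months. In IL1R1 KO it averaged 3383 ± 450.2 (SD, n = 3) at 2 months, then 2764 ± 259 (SD, n = 4) at 1 year, then 2567 ± 356 (SD, n = 5) at 2 years, and in WT 2982 ± 700.3 (SD, n = 4), 2848 ± 131 (SD, n = 5) and 2467 ± 464 (SD, n = 4). Only the IL1R1 KO group of 2 years lay wholly below its 2-month group, with a log2 difference of -0.40 ± 0.15 (adjusted p = 0.102). In WT the differences from 2 months were -0.040 ± 0.14 at 1 year and -0.27 ± 0.15 at 2 years (adjusted p = 0.906 and 0.343).

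The 3 TET genes, whose enzymes start the removal of methylation, also passed in none of the 15 comparisons. Within groups, Tet3 had the widest spread of the 10 members, with a median coefficient of variation of 26.5% over the 8 groups. Kdm6b followed at 22.5%, and Tet2 and Tet1 stood at 16.5% and 15.5%. Tet2 (ENSMUSG00000040943, chromosome 3, 133463679 to 133545139, minus strand, GRCm38) had 1992 and 2103 normalized counts in germ-free HSCs at 1 year, against 1725, 1202 and 1335 at 2 months. In IL1R1 KO HSCs it had 1060.2, 1327 and 1410.4 at 2 months, 1468, 1027, 1400.0 and 1367 at 1 year and 1149, 1297, 1233, 1709 and 1141 at 2 years. WT HSCs had 1089.6, 1122, 1156 and 1418 at 2 months, 2118, 784, 849.9, 922 and 872 at 1 year and 1343, 825, 2006 and 733 at 2 years. Replicate 1 of WT at 1 year stood far above the other 4 of its group, and WT at 2 years held both the lowest Tet2 of all libraries, in replicate 4, and a level near the germ-free one, in replicate 3. Germ-free at 1 year was the highest group by mean and lay above all germ-free libraries of 2 months.

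Germ-free HSCs at 1 year differed from WT of that age in Tet2 by 1.00 ± 0.31 log2, 1.99-fold (adjusted p = 0.0545), which missed the threshold. Without WT 1 year replicate 1 the difference was 1.26 and passed (adjusted p = 0.00340). Against germ-free at 2 months it was 0.54 ± 0.33 (adjusted p = 0.475). The age differences in IL1R1 KO were 0.053 ± 0.28 at 1 year and 0.039 ± 0.27 at 2 years, and in WT -0.21 ± 0.24 and -0.075 ± 0.26, all with an adjusted p of at least 0.660.

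Tet1 (ENSMUSG00000047146, chromosome 10, 62804570 to 62908996, minus strand, GRCm38) averaged 2678 ± 345 (SD, n = 2) normalized counts in germ-free HSCs at 1 year, against 2505 ± 394 (SD, n = 3) at 2 months. In IL1R1 KO it averaged 2315 ± 573 (SD, n = 3) at 2 months, then 2094 ± 320.0 (SD, n = 4) at 1 year, then 1626 ± 212 (SD, n = 5) at 2 years, and in WT 2046 ± 455 (SD, n = 4), 1854 ± 163 (SD, n = 5) and 2272 ± 739 (SD, n = 4). Both germ-free libraries of 1 year were above all WT libraries of that age, by 0.53 ± 0.22 log2 (adjusted p = 0.163). IL1R1 KO at 2 years had the lowest mean, -0.49 ± 0.19 from 2 months (adjusted p = 0.123) and -0.44 ± 0.18 from WT at 2 years (adjusted p = 0.281), with overlapping libraries in each case. With the DNA replication level in the model, the Tet1 difference of IL1R1 KO at 2 years from 2 months was -0.92 (adjusted p = 0.00965). The libraries of these groups did not overlap in that level, so it cannot be told apart from age there.

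Tet3 (ENSMUSG00000034832, chromosome 6, 83362373 to 83459084, minus strand, GRCm38) had 1556 and 1349 normalized counts in germ-free HSCs at 1 year, against 2121, 1473 and 1924 at 2 months. In IL1R1 KO HSCs it averaged 1668 ± 461 (SD, n = 3) at 2 months, then 1839.5 ± 574 (SD, n = 4) at 1 year, then 1244 ± 341 (SD, n = 5) at 2 years. Libraries of WT mice had 1606, 2025, 2788 and 2042 at 2 months, 2366, 2255, 726, 1295 and 2321 at 1 year and 1251, 1229, 1983 and 1277 at 2 years. WT at 1 year split into 3 high and 2 low libraries, and all 8 groups overlapped their neighbours in order of mean. The largest age difference, WT at 2 years against 2 months, was -0.56 ± 0.31 (adjusted p = 0.361), with a 95% interval of -1.20 to 0.079.

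Asxl1 (ENSMUSG00000042548, chromosome 2, 153345829 to 153404007, plus strand, GRCm38) was the 1 member called between germ-free and WT HSCs. It had 2348 and 2149 normalized counts in germ-free at 1 year, against 1992, 1508 and 2014 at 2 months. In IL1R1 KO it had 1678, 1856 and 1308 at 2 months, 1943, 1680.2, 2141 and 1814 at 1 year and 1786, 1843, 1721, 1921 and 1782 at 2 years. In WT it had 1437, 1300.2, 1729 and 2091 at 2 months, 1584, 1318, 1609, 1341 and 1573 at 1 year and 1971, 1605, 2367 and 1717 at 2 years. At 1 year both germ-free libraries and all 4 IL1R1 KO libraries were above all 5 WT libraries. Germ-free at 1 year was higher than WT at 1 year by 0.60 ± 0.17 log2, 1.52-fold (adjusted p = 0.0336). IL1R1 KO at 1 year differed from WT by 0.35 ± 0.13 (adjusted p = 0.248) and at 2 years by -0.066 ± 0.13 (adjusted p = 0.916). The age differences of Asxl1 passed in no kind of mouse, and lay between -0.12 ± 0.13 in WT at 1 year and 0.30 ± 0.18 in germ-free at 1 year, each against 2 months.

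The germ-free call for Asxl1 was lost without germ-free 1 year replicate 1 (0.54, adjusted p = 0.263) or replicate 2 (0.67, adjusted p = 0.0792), and without WT 1 year replicate 2 (0.56, adjusted p = 0.0685) or replicate 4 (0.57, adjusted p = 0.0717). Erythroid markers moved in the same comparison, with 4 of 9 called higher, against 1.83% of all genes. Their summed level was 8904 to 19242 normalized counts in germ-free at 1 year, against 1508 to 3943 in WT at 1 year, and none of the 9 was at 0 in any library. Their part in the Asxl1 difference was not tested.

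Kdm6b (ENSMUSG00000018476, chromosome 11, 69398508 to 69413675, minus strand, GRCm38), a histone H3 lysine 27 demethylase that in macrophages is induced by inflammatory signals, went opposite ways with age in IL1R1 KO and WT HSCs. In germ-free it had 1892 and 1395 normalized counts at 1 year, against 1478, 3087 and 1119.8 at 2 months. In IL1R1 KO it had 1142, 1085 and 1153 at 2 months, 3032, 2529, 2068 and 1297 at 1 year and 2137, 2494, 2049, 2068 and 1979 at 2 years. In WT it had 2163, 1725, 2679.9 and 1619 at 2 months, 1191, 1111, 1269, 1331 and 915 at 1 year and 1491, 1057, 2453 and 914 at 2 years. The 3 IL1R1 KO libraries of 2 months were close together and below all later IL1R1 KO libraries and all WT libraries of 2 months. WT at 1 year lay wholly below WT at 2 months, and WT at 2 years reached into the range of WT at 2 months through its replicate 3.

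Kdm6b rose in IL1R1 KO at 2 years, by 0.92 ± 0.28 log2 against 2 months, 1.90-fold (adjusted p = 0.0385), and at 1 year the difference was 0.92 ± 0.29 (adjusted p = 0.105). In WT it fell at 1 year, a log2 difference of -0.80 ± 0.26 (adjusted p = 0.0446), and at 2 years the difference was -0.55 ± 0.27 (adjusted p = 0.287). The change in IL1R1 KO minus the change in WT was 1.72 ± 0.39 to 1 year (adjusted p = 0.126) and 1.47 ± 0.39 to 2 years (adjusted p = 0.0934), and neither passed. IL1R1 KO against WT was -0.83 ± 0.29 at 2 months, 0.88 ± 0.26 at 1 year and 0.64 ± 0.26 at 2 years (adjusted p = 0.310, 0.0915 and 0.284). The IL1R1 KO call at 2 years was lost whichever of its 8 libraries was left out, at 0.87 to 0.95 and an adjusted p of 0.0540 to 0.113. The WT call at 1 year was lost without 8 of its 9 libraries, at -0.90 to -0.66 over all 9 and an adjusted p of 0.0480 to 0.140.

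Single libraries moved Kdm6b the other way as well. Without IL1R1 KO 1 year replicate 4, the lowest of its group, the difference at 1 year passed against IL1R1 KO at 2 months (1.16, adjusted p = 0.0371), against WT at 1 year (1.12, adjusted p = 0.0243) and as the difference of the 2 changes (1.95, adjusted p = 0.0274). Without WT 2 years replicate 3, the highest of its group, the difference of the changes to 2 years passed (1.75, adjusted p = 0.0255). With the library of conflicting age labels placed at 2 months, the IL1R1 KO difference at 2 years was 0.57 (adjusted p = 0.333). Without the 2-month libraries of high Mpo it was 0.98 (adjusted p = 0.214), and the WT difference at 1 year was -1.06 (adjusted p = 0.0301).

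Growth signals and cell handling quickly switch on the immediate early genes, some of which were called higher where Kdm6b rose. Of 20, 8 were called higher in IL1R1 KO at 2 years against 2 months, 1 at 1 year, and 3 in IL1R1 KO against WT at 2 years. Of all genes, 5.12% and 1.39% were called higher in the 2 age comparisons, and 1.42% in either direction against WT at 2 years. In WT, where Kdm6b fell at 1 year, 0 of 20 were called at 1 or 2 years against 2 months by limma, also at an unadjusted p under 0.05. Of all genes, 10.7% and 5.55% were called at these ages. The median log2 difference of the 20 was 1.29 in IL1R1 KO at 2 years, where that of all genes was 0.0027. Among them Egr3 rose by 4.83 ± 1.02 log2 (adjusted p = 0.00296) and Myc by 0.94 ± 0.14 (adjusted p = 5.73e-05) in IL1R1 KO at 2 years against 2 months. Their mean log2 level was 11.73 in IL1R1 KO at 2 months, 13.13 at 1 year and 13.43 at 2 years, and 12.04, 11.71 and 11.63 in WT at these ages. With that level as a covariate, chosen after seeing the data, the Kdm6b difference of IL1R1 KO at 2 years from 2 months was 0.27 (adjusted p = 0.675), while that of Ezh1 stayed a call at 1.07 (adjusted p = 2.38e-05). In IL1R1 KO that level was 11.17 to 12.67 at 2 months and 13.27 to 13.50 at 2 years. The groups did not overlap in it, so the covariate cannot be told apart from age there. The cause of the Kdm6b difference was not tested.

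To show which genes shared each member's pattern, log2 levels over the 30 libraries were correlated with those of 12267 protein-coding genes with a mean of at least 50, and the 3 genes of highest Pearson r are named as a description. The libraries share age, genotype and cell composition, so a high r can follow any of these. Ezh1 had the closest neighbours of the 10, Zg16 (0.925), Cavin2 (0.912) and Enpp5 (0.911). Kdm6b was followed by Zbtb10 (0.897), Ccnl1 (0.881) and Tpm3 (0.856), and Dnmt1 by Chaf1a (0.885), Mcm5 (0.882) and Ung (0.881). Ezh2 was followed by Pola1 (0.816), Mki67 (0.746) and Dld (0.735), where Pola1 encodes the catalytic subunit of DNA polymerase alpha and Mki67 the proliferation marker Ki-67. Among the TET genes, Tet1 was followed by Nsd1 (0.825), Olfr1167 (0.780) and Ifi203 (0.773), Tet2 by Pabpc1 (0.805), Hnrnpd (0.790) and Pkd2 (0.783) and Tet3 by Mdfi (0.686), Khsrp (0.661) and Zfp608 (0.651). For Dnmt3b the genes were Sash3 (0.786), Coro1a (0.765) and Ywhag (0.739), and for Dnmt3a Ndrg4 (0.691), Sipa1 (0.655) and Ppm1m (0.622). For Asxl1 they were Hs2st1 (0.717), Rnf213 (0.714) and Capns1 (0.712).

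Partners of the members were counted from 6 lists: DNA methylation partners (14 genes), the TET pathway with base excision (13, of which 12 were tested), other PRC2 subunits (10), PRC1 subunits (19), the ASXL and BAP1 complex (9) and other demethylases of histone H3 lysines 27 and 4 (10). Of the 74 tested, 6 were called in WT at 1 year against 2 months, 3 higher and 3 lower, which is 8.11% against the 10.7% of all genes, and 1 in WT at 2 years (1.35% against 5.55%). In IL1R1 KO 0 of 74 were called at 1 year (9 at an unadjusted p under 0.05), where 2.00% of all genes were. At 2 years 5 were called, 2 higher and 3 lower (6.76% against 8.02% of all genes), and in germ-free 1 at 1 year (1.35% against 2.10%). Of the PRC2 list, 0 of 10 were called in any age comparison, where 2.00% to 10.7% of all genes were called against 2 months. For a list of 10 genes, 0 calls is near those shares. Of the ASXL and BAP1 list and of the demethylase list none was called with age, which for lists this short is also near the shares of all genes.

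Gadd45g, a stress-induced gene of a family tied to active DNA demethylation, was the partner called most often with age. It averaged 1212 ± 285 (SD, n = 2) normalized counts in germ-free at 1 year, against 422 ± 87.9 (SD, n = 3) at 2 months. It averaged 879.8 ± 254 (SD, n = 3) in IL1R1 KO at 2 months, then 1373 ± 149 (SD, n = 4) at 1 year, then 1843 ± 168 (SD, n = 5) at 2 years, and 664 ± 91.4 (SD, n = 4), 1436 ± 249 (SD, n = 5) and 1750.0 ± 524 (SD, n = 4) in WT. It rose in germ-free at 1 year (1.52 ± 0.24 log2, adjusted p = 0.000207), in IL1R1 KO at 2 years (1.10 ± 0.19, adjusted p = 0.000292) and in WT at 1 year (1.10 ± 0.17, adjusted p = 6.82e-05) and 2 years (1.36 ± 0.18, adjusted p = 9.27e-06). In IL1R1 KO at 1 year the difference was 0.67 ± 0.20 (adjusted p = 0.0713). Uhrf1, which brings Dnmt1 to newly copied DNA, fell in IL1R1 KO at 2 years (-0.70 ± 0.21, adjusted p = 0.0360), and Idh2, whose mitochondrial product is the cofactor of TET enzymes, fell there, a log2 difference of -0.37 ± 0.12 (adjusted p = 0.0458). Trim28, a corepressor that helps keep repeats methylated, fell in WT at 1 year (-0.76 ± 0.15, adjusted p = 0.00104), as did Uhrf2 (-0.37 ± 0.12, adjusted p = 0.0372). Of the PRC1 list, Cbx6 rose and Phc2 fell in WT at 1 year (0.44 ± 0.14 and -0.74 ± 0.20), and Pcgf6 rose and Cbx2 fell in IL1R1 KO at 2 years (0.68 ± 0.21 and -0.76 ± 0.24).

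In germ-free against WT at 1 year, 7 of the 74 partners were called, 2 higher and 5 lower (9.46% against 4.96% of all genes). The PRC2 core subunit Suz12 was higher (0.81 ± 0.22, adjusted p = 0.0285) and its partner Rbbp7 lower (-0.50 ± 0.10, adjusted p = 0.00453). Trim28 was also higher (0.80 ± 0.19, adjusted p = 0.0120), though its 2 germ-free libraries stood apart at 3679 to 7868 normalized counts, against 2586 to 3703 in WT. Lower were the PRC1 genes Cbx6, Pcgf6 and Cbx2 and the uracil glycosylase gene Smug1 (-1.17 ± 0.33, adjusted p = 0.0372). In IL1R1 KO against WT, 0 of 74 were called at 2 months, 1 year or 2 years, with 9, 9 and 6 at an unadjusted p under 0.05. Of all genes, 0.407%, 1.30% and 1.42% were called there.

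Among 30 other genes mutated in clonal haematopoiesis or myeloid cancer, 7 were called in WT at 1 year against 2 months (10.7% of all genes were), 2 higher and 5 lower, and 1 in WT at 2 years (5.55% of all genes). In IL1R1 KO 0 of 30 were called at 1 year (8 at an unadjusted p under 0.05), where 2.00% of all genes were, and 2 at 2 years, where 8.02% were, Kmt2d higher and Sf3b1 lower. In germ-free 2 were called at 1 year, both lower, where 2.10% of all genes were. In WT at 1 year the splicing factor gene Zrsr2 (-0.62 ± 0.15, adjusted p = 0.00643) and Gnas (-0.46 ± 0.11, adjusted p = 0.00816) fell. The corepressor gene Bcor fell at 1 year (-0.45 ± 0.13) and at 2 years (-0.51 ± 0.14, adjusted p = 0.0203). In germ-free at 1 year the transcription factor gene Cux1 fell (-0.53 ± 0.10, adjusted p = 0.00332), and so did Bcorl1 (-1.07 ± 0.27, adjusted p = 0.0295).

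Kmt2d, a histone H3 lysine 4 methyltransferase gene of that list, was lower in IL1R1 KO than in WT at all 3 ages. It averaged 4745 ± 128 (SD, n = 3) normalized counts in IL1R1 KO, against 8193 ± 788 (SD, n = 4) in WT, at 2 months. At 1 year it averaged 5668 ± 154 (SD, n = 4) in IL1R1 KO, against 8205 ± 510.1 (SD, n = 5) in WT, and at 2 years 6003 ± 501 (SD, n = 5), against 9610.0 ± 894 (SD, n = 4). The log2 differences were -0.78 ± 0.10, -0.53 ± 0.086 and -0.68 ± 0.086 (adjusted p = 1.40e-05, 0.000555 and 1.70e-05), with every IL1R1 KO library below every WT library at each age. In IL1R1 KO it rose between 2 months and 2 years (0.34 ± 0.093, adjusted p = 0.0227). IL1R1 KO against WT had 1 of the 30 called at 2 months, 2 at 1 year and 1 at 2 years, where 0.407%, 1.30% and 1.42% of all genes were called. Beside Kmt2d, the call at 1 year was Rad21, higher by 0.51 ± 0.13 (adjusted p = 0.0484). Against WT at 1 year, germ-free HSCs had 4 of the 30 called (4.96% of all genes were), 2 higher and 2 lower, among them the cohesin genes Rad21 and Stag2, higher, and Cux1, lower.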

How the data were processed

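Reads were single-end, 100 bp, from Smart-seq2 libraries, per the labels' protocols. The submitters' processing notes list DESeq2 1.26.0, Salmon 1.2.0.0, cutadapt 2.10 and FastQC 0.11.9, and the build GRCm38. The deposited signal values are the authors' normalized counts, gene counts divided by a factor per library. No source names the step from Salmon's transcripts to genes. Library sums were 27.5 to 30.7 M, and only 10.9 to 18.4% of values below 20 were whole within 0.001 after rescaling, so whole reads could not be recovered and no count test was run. Depth limits precision most for the least abundant genes, and the intervals printed are those of limma.

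Genes with at least 10 normalized counts in at least 3 libraries were kept (16958, all 10 members among them), and log2(normalized count + 1) was fitted with limma 3.58.1 in R 4.3.3 (group means over all 30 libraries, empirical Bayes with trend and robust settings, two-sided, Benjamini-Hochberg over all genes tested, threshold 0.05). Fold changes are on that scale. The Ezh2 to Ezh1 ratio was tested with exact two-sided permutation tests in Python 3.11.15, adjusted over 5 comparisons. The named genes are all members, up to 3 called genes with the smallest p per partner list and comparison described, and the 3 genes most like each member; others named were chosen after their values were seen. The members and gene lists were chosen with earlier results of these data known. Alternatives were a pseudocount of 8, no filter, quantile normalization, a fit of only the groups compared, a replicate block, the library of conflicting age labels placed at 2 months, the mean DNA replication level as a covariate and each library left out in turn. Chosen after seeing the data were the fit without the 6 libraries of 2-month mice with Mpo over 10000, where 3 later libraries above that level were kept, and the immediate early covariate. Gene coordinates are from GENCODE M21 and promoters from RefSeq on GRCm38.p6. No pair of libraries was alike enough to be a duplicate, the highest correlation being 0.968. The tests were checked on simulated data. Values of 1 gene named by the rule are not reported here.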

Additional observations from a re-analysis of the deposited data

Results flagged for a closer look

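In 3 of the 50 sets of 4 or more libraries examined, 1 library stood apart from the rest of its group by Dixon's criterion; chance gives about 1 in 20. Tet2 was 1709 normalized counts in IL1R1 KO 2 years replicate 4, the highest of its group, and the gap to the next library took a share of 0.726 of the group's range. For Tet2 in WT 1 year replicate 1, at 2118 normalized counts, the share was 0.896, and the germ-free difference at 1 year passed the test without that library, as given above. Tet3 was 1983 in WT 2 years replicate 3, with a share of 0.936, and that library also had the highest Tet1, Tet2, Asxl1, Ezh2 and Kdm6b of its group.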

How the results depend on the processing

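Of 22 member differences followed through the alternatives, 386 values in all, 291 kept their direction and their side of the threshold, 79 kept the direction and lost the call, 15 gained a call and 1 reversed: Dnmt1 in WT at 1 year, which was 0.056 (adjusted p = 0.797) with the DNA replication covariate. The level of that covariate did not overlap between WT at 2 months and at 1 year. The number of members called in IL1R1 KO at 1 year, 3, was 0 with only the groups compared, with the DNA replication covariate and without the 2-month libraries of high Mpo, and 0 to 3 with each library left out. In IL1R1 KO at 2 years, 3 became 1 with the immediate early covariate or without the libraries of high Mpo, and 1 to 2 with each library left out. Between 2 years and 1 year in IL1R1 KO, 0 became 1 with only the groups compared or without the libraries of high Mpo. In germ-free at 1 year, 1 became 0 without the filter, with only the groups compared, the replicate block, the library of conflicting labels at 2 months or the DNA replication covariate, without the libraries of high Mpo, and with any library left out. In WT at 1 year, 3 became 1 without the filter, with the replicate block or with the DNA replication covariate, and 1 to 2 with each library left out. Against WT at 1 year, IL1R1 KO went to 1 with only the groups compared, to 2 without the libraries of high Mpo and 0 to 1 with each library left out, and germ-free to 2 with only the groups compared and 0 to 2 with each library left out. The differences between the changes of IL1R1 KO and WT gave 0 to 1 members with each library left out, for either age, and for 2 years 1 member with only the groups compared. The Ezh2 to Ezh1 ratio in IL1R1 KO at 1 year was -1.13 (adjusted p = 0.0714) with the library of conflicting labels at 2 months, and -1.36 to -1.10 with each library left out, where its call was lost in all 7 cases, a change that fewer samples alone can give. At 2 years it was -1.58 to -1.32, with the call lost in 3 of 8. The cause of the other changes was not tested.

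Replicates of different groups share numbers. Deviations of same-numbered libraries correlated at -0.110 to 0.157, with at most 1 pair over 0.1 in any comparison. No clear pairing by number was seen, and the replicate block is no main result. With 2 to 4 pairs in a comparison, this check cannot exclude that some libraries were prepared together. The smallest group, germ-free at 1 year, has 2 libraries, which limits every result on it.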

Other observations

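Part of a list of mitosis genes fell with age in IL1R1 KO and WT HSCs. Of 15, 7 were called lower in IL1R1 KO at 2 years against 2 months, 3 in IL1R1 KO at 1 year, 6 in WT at 1 year and 4 in WT at 2 years, and 0 in germ-free at 1 year by limma, also at an unadjusted p under 0.05. Of all genes, 2.90% were called lower in IL1R1 KO at 2 years, 0.613% in IL1R1 KO at 1 year and 4.61% in WT at 1 year. In either direction 5.55% were called in WT at 2 years and 2.10% in germ-free at 1 year. The survivin gene Birc5 fell by 0.67 on the log2 scale in IL1R1 KO at 2 years (adjusted p = 0.00905) and by 1.13 in WT at 1 year (adjusted p = 7.29e-06). At 1 year 3 of the 15 were called higher in germ-free than in WT, among them Mki67 (0.94 ± 0.19, SE, adjusted p = 0.00587), where 1.83% of all genes were called higher. The mean log2 level of the 15 was 10.49 in germ-free and 10.03 in WT at that age.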
